A study of Mus musculus with 12 samples.

Results

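The genes described here are 40 genes of autophagy and lysosome biogenesis. They were chosen by symbol and not by a rule on their measured values, but with earlier results of these data known. They were the rows carrying these 40 symbols among 55228 rows of the expression table, and all 40 were among the 15043 genes that were tested because their mean level, in TPM, a unit that scales reads by transcript length and library total, was at least 1. The study asked how regulatory T cells (Tregs) respond to IL-2 that is tethered to its own engineered receptor, compared with soluble IL-2 and with IL-2 withdrawal. RNA was sequenced in 12 libraries, 3 from each of 4 groups. All 4 groups were Tregs from NOD.Foxp3-GFP mice, which carry a green fluorescent reporter of Foxp3, and by the labels the cells came from lymph nodes of 16 pooled mice and were sorted as Foxp3.GFP+CD25+. The methods of the study also give spleen as a source. EV Tregs carried an empty retroviral vector with the surface reporter Thy1.1 and were either withdrawn from IL-2 (EV no IL-2) or kept in it (EV+IL-2). Both tether groups, 1G12t and 3A10t, carried the same vector with the orthoIL-2 variant 1G12 or 3A10 joined by a CD25-derived linker to orthoIL-2Rβ, the engineered IL-2 receptor β chain, and were cultured without IL-2. Transduction was on day 2 of activation. All but EV+IL-2 were washed free of IL-2 on day 4, and every group was cultured for 5 more days and sorted as Thy1.1+ cells on day 9. The vector is constitutive and the reporter gate selects transduced cells, so each group is a transduced culture and not a clone. Replicates were cultures of 1 pool of cells that were sorted on separate machines and activated separately, not separate animals, so p-values measure the spread between these cultures.

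Autophagy encloses cytoplasm in a double membrane, the autophagosome, which then fuses with the lysosome for degradation. A kinase complex around ULK1 starts the process, a lipid kinase complex around VPS34 marks the membrane with the lipid PI3P, ATG2 proteins feed lipid into it, and a conjugation system couples LC3 and GABARAP proteins to it, where cargo receptors bind. The kinase mTORC1 restrains both ULK1 and TFEB, the transcription factor of lysosome genes, and in T cells IL-2 is one of the signals that raise mTORC1 activity.

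Values below are TPM divided by a per-library scaling factor, which lay between 0.854 and 1.09, and fold changes are differences of log2(scaled TPM + 1), which understate changes of weakly expressed genes. The number of reads behind a TPM is unknown. Transcripts of Il2, which the tethered constructs encode, were at 12.9 to 29.8 TPM in the 6 tether libraries and at 0.181 to 0.492 in the 6 EV libraries, and Thy1 was at 182 to 261 in the tether libraries and at 3111 to 3477 in the EV libraries, which separated tether from EV libraries without exception. The 4 Treg markers Foxp3, Il2ra, Ikzf2 and Ctla4 summed to 1587 to 1619 TPM in EV+IL-2 and to 1035 to 1285 in the other 9 libraries, and the 4 T cell markers to 2981 to 3356 and to 3538 to 4415. The Treg markers did not move together. Against EV no IL-2 their log2 changes in EV+IL-2 ran from -0.21 to 0.76, and 1 of the 4 was higher at an adjusted p under 0.05. The 3 B cell markers summed to at most 16.0 TPM and the 2 CD8 T cell markers to at most 6.51. The myeloid list came to 441 to 764 TPM, nearly all of it from Cst3, at 440 to 762, while Lyz2 was at most 0.480. The 7 erythroid markers summed to 24.6 to 38.7 in EV+IL-2 and to 1.92 to 4.27 in the other 9 libraries, with Hba-a1 and Hba-a2 as the main contributors. The median within-group SD of a gene on the log2 scale was 0.224 in 3A10t and 0.109 to 0.154 in the other groups. Within its group, replicate 1 of 3A10t stood apart from replicates 2 and 3. Results that rest on replicate 1 are given with and without it. Compared with the other groups, however, replicate 2 of 3A10t departed most, with the lowest scaling factor, 0.854. Its 10 highest genes held 13.5% of TPM, against 10.8% in replicate 1 and 8.85% to 9.92% in the other groups. Replicate 3 lay between replicates 1 and 2 in both measures. Replicates 2 and 3 also carried a length trend, described below. In bulk RNA, fewer cells of a type and less RNA per cell cannot be told apart.

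Most of the 40 genes passed the test in no comparison. With soluble IL-2, 1 of 40 genes rose above EV no IL-2 (Bnip3) and 3 fell below it (Sqstm1, Wipi2 and Bnip3l) at an adjusted p under 0.05, where 8.17% of all tested genes were called higher and 5.13% lower. In 3A10t against EV no IL-2, 0 were called higher and 3 lower (Ulk2, Ambra1 and Atg2a), against 0.452% and 1.60% of all genes. For 1G12t relative to EV no IL-2, limma called 0 of the 40 in either direction, beside 0.0133% and 0.00665%, and 1 gene, Atg2b, had an unadjusted p under 0.05, against 7.04% of all genes. All 3 comparisons share their control libraries. Compared with each other, 3A10t was lower than 1G12t in 5 genes and higher in 0, against 2.96% and 1.30%, and 3A10t was lower than EV+IL-2 in 9 genes and higher in 2, against 13.0% and 10.3%. Read against these shares, the genes called lower in 3A10t made up more of the 40 than of all genes in each of its 3 comparisons. Those shares are not matched for transcript length. Of the 40 genes, 20 have a transcript of at least 3659 bases, as do 4952 of 14857 tested genes with a length. Genes of that length ran lower in 3A10t in general, with 35.6% positive against EV no IL-2, and calls after a length correction are given below. The genes called in EV+IL-2 against EV no IL-2 were near or below the share of all genes, and no test over the 40 was made. At the study's own threshold, an unadjusted p under 0.01 with a log2 change beyond 0.25, EV+IL-2 had 2 genes higher and 3 lower, beside 8.99% and 6.10% of all genes. By the same rule 3A10t had 0 higher and 8 lower than EV no IL-2 (2.83% and 6.67%), 1 higher and 6 lower than 1G12t (5.29% and 7.06%) and 1 higher and 8 lower than EV+IL-2 (9.63% and 12.5%), while 1G12t had 0 and 0 (1.13% and 0.226%). A positive change was found for 17 of the 40 genes with soluble IL-2, 11 in 3A10t and 12 in 1G12t, beside 45.9%, 52.9% and 48.1% of all genes. With TPM as deposited these numbers were 10, 6 and 17, and with quantile normalization 12, 14 and 15. The median log2 fold change of the 40 genes was -0.03 with soluble IL-2, -0.13 in 3A10t and -0.06 in 1G12t, beside medians over all tested genes of -0.01, 0.03 and -0.004. After the trend on transcript length was removed in each library, the median in 3A10t was -0.06, with 15 of 40 changes positive.

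**Figure D1:**
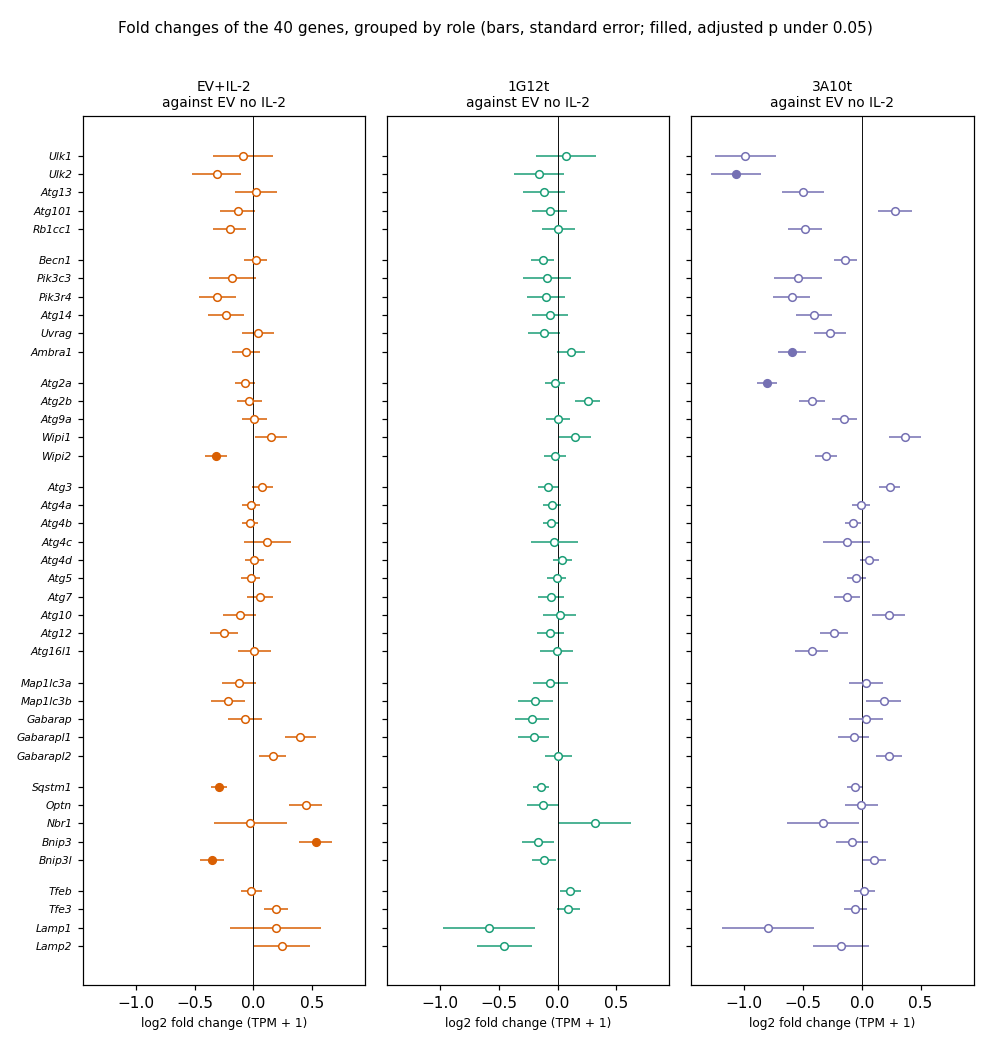
Log2 fold changes (x axis) of the 40 genes (y axis, grouped by role) in EV+IL-2, 1G12t and 3A10t, each against EV no IL-2, with bars for the standard error and filled points for an adjusted p under 0.05. The 3 filled points in 3A10t are Ulk2, Ambra1 and Atg2a, and the 4 in EV+IL-2 are Wipi2, Sqstm1, Bnip3 and Bnip3l.

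The initiation kinase complex consists of the kinase ULK1 or its paralog ULK2, the scaffold FIP200 (gene Rb1cc1) and the adaptors ATG13 and ATG101. The kinase genes were at their lowest in 3A10t. Ulk2 (GRCm38, chr11:61775649-61855073, ENSMUSG00000004798.14) was at 13.4, 14.3 and 16.5 TPM in EV no IL-2, at 12.1, 9.54 and 13.4 in EV+IL-2, 14.1, 10.2 and 15.3 in 1G12t, and 7.54, 4.37 and 8.04 in 3A10t, in the order of replicates 1 to 3. Ulk1 (chr5:110784488-110810097, ENSMUSG00000029512.11) was at 22.6, 15.5 and 20.96 in EV no IL-2, at 21.1, 13.0 and 21.9 in EV+IL-2, 23.7, 16.8 and 21.6 in 1G12t, and 10.4, 6.21 and 12.3 in 3A10t. All 3 libraries of 3A10t lay below all 9 others for both genes, and replicate 2 had the lowest Ulk1 of its group in each of the 4 groups. Ulk2 fell in 3A10t by 1.07 on the log2 scale (SE 0.21, adjusted p = 0.038) against EV no IL-2, by 0.91 (adjusted p = 0.044) against 1G12t and by 0.75 (adjusted p = 0.027) against EV+IL-2. Ulk1 fell by 1.06 (SE 0.26, adjusted p = 0.048) against 1G12t and by 0.90 (adjusted p = 0.029) against EV+IL-2. Against EV no IL-2 the change of Ulk1 was -0.99 with an adjusted p of 0.070, and 0.0076 with the replicate as a block. With soluble IL-2 and in 1G12t, the changes of Ulk1 were -0.09 (95% interval -0.66 to 0.48) and 0.07 (-0.50 to 0.64).

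The calls of the kinase genes depended on single libraries. Against EV no IL-2, that of Ulk2 held in 3 of the 12 fits that left out 1 library (without 1G12t replicate 2, 1G12t replicate 3 or 3A10t replicate 1), with adjusted p from 0.058 to 0.15 and changes from -1.21 to -0.84 in the other 9. Against 1G12t, those of Ulk1 and Ulk2 held in 1 of 12, without 3A10t replicate 1, with an adjusted p of up to 0.13 otherwise, and against EV+IL-2 both were lost without EV+IL-2 replicate 1, EV+IL-2 replicate 3 or 3A10t replicate 2, with adjusted p from 0.073 to 0.10. Of the adaptors, Atg13 was at 53.0 TPM in 3A10t replicate 1, inside the range of the EV libraries, and at 28.7 and 31.2 in replicates 2 and 3, and Rb1cc1 at 58.3, 40.6 and 45.7 against 59.0 to 72.1 in EV no IL-2. Their log2 changes in 3A10t were -0.50 and -0.48, with adjusted p of 0.12 and 0.088. Atg101, the shortest transcript of the complex, went the other way, at 102, 160 and 121 TPM against 96.3 to 108 in EV no IL-2 (log2 change 0.28, adjusted p = 0.24).

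The VPS34 complex joins the lipid kinase (gene Pik3c3), its regulatory subunit (Pik3r4) and the scaffold beclin 1 (Becn1) with either ATG14 or UVRAG, and AMBRA1 is an adaptor that connects it to ULK1. Ambra1 (chr2:91730134-91918849, ENSMUSG00000040506.16) was at 15.7, 16.7 and 17.7 TPM in EV no IL-2, at 15.0, 15.2 and 17.6 in EV+IL-2, 15.9, 18.5 and 20.0 in 1G12t, and 12.8, 9.86 and 9.76 in 3A10t. The 3A10t libraries were below all 9 others. Ambra1 fell by 0.59 (SE 0.12, adjusted p = 0.040) against EV no IL-2, by 0.70 (adjusted p = 0.024) against 1G12t and by 0.53 (adjusted p = 0.011) against EV+IL-2. The call against EV+IL-2 held without any 1 library. That against EV no IL-2 held in 2 of 12 such fits (without 1G12t replicate 3 or 3A10t replicate 1), with adjusted p from 0.053 to 0.16 in the others, and that against 1G12t was lost without replicate 2 or 3 of 1G12t or of 3A10t, with adjusted p from 0.065 to 0.088.

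The core subunits of the lipid kinase showed a split inside 3A10t. Pik3c3 was at 38.3 TPM in replicate 1 and at 19.7 and 20.9 in replicates 2 and 3, against 35.1 to 40.1 in EV no IL-2. Atg14 was at 17.7 in replicate 1 and at 11.6 and 10.5 in the other 2, against 16.1 to 18.6. Pik3r4 was at 19.9, 13.6 and 11.5 against 20.6 to 24.6, which did not overlap. None of these passed the test against EV no IL-2, with log2 changes of -0.54, -0.41 and -0.60 and adjusted p of 0.14, 0.14 and 0.075. Uvrag changed by -0.27 and Becn1, the most abundant gene of the complex at 265 to 353 TPM, by -0.14, both with adjusted p above 0.05. In EV+IL-2 the 6 genes had changes between -0.31 and 0.04, and 3 of them (Pik3c3, Pik3r4 and Atg14) lay below EV no IL-2 without overlap, as did 20.0% of all genes, with adjusted p of at least 0.27.

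ATG2A and ATG2B are bridge-like proteins that move lipid from the endoplasmic reticulum into the growing membrane, ATG9A is the membrane protein that seeds it, and WIPI1 and WIPI2 bind its PI3P. Atg2a gave the firmest difference among the 40 genes. It is at chr19:6241668-6262335 (ENSMUSG00000024773.15) and was at 20.3, 18.1 and 18.7 TPM in EV no IL-2, at 17.4, 17.7 and 19.1 in EV+IL-2, 17.5, 20.3 and 18.5 in 1G12t, and 11.2, 10.1 and 10.0 in 3A10t. The other 9 libraries lay between 17.4 and 20.3, and the 3A10t libraries were well below them. Atg2a fell by 0.81 (SE 0.09, adjusted p = 0.0032) against EV no IL-2, by 0.79 (adjusted p = 0.0033) against 1G12t and by 0.74 (adjusted p = 0.000243) against EV+IL-2, and all 3 calls held whichever library was left out. Its changes with soluble IL-2 and in 1G12t were -0.07 (95% interval -0.26 to 0.12) and -0.02 (-0.21 to 0.17).

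Its paralog Atg2b (chr12:105616136-105685211, ENSMUSG00000041341.10) was at 10.3, 12.1 and 10.8 TPM in EV no IL-2, at 10.2, 10.6 and 11.5 in EV+IL-2, 13.1, 13.5 and 13.6 in 1G12t, and 9.41, 7.86 and 6.85 in 3A10t. The 1G12t libraries were the highest 3 of the 12 and the 3A10t libraries the lowest 3. Atg2b fell in 3A10t by 0.68 (SE 0.11, adjusted p = 0.016) against 1G12t and by 0.39 (adjusted p = 0.025) against EV+IL-2, while against EV no IL-2 its change was -0.42 (adjusted p = 0.067) in 3A10t and 0.26 (adjusted p = 0.70) in 1G12t. The call against 1G12t was lost without 1G12t replicate 2, 1G12t replicate 3 or 3A10t replicate 3 (adjusted p 0.053 to 0.062), and that against EV+IL-2 without any 1 of the EV+IL-2 libraries, 3A10t replicate 2 or 3A10t replicate 3 (0.051 to 0.083).

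Wipi2 (chr5:142627698-142670588, ENSMUSG00000029578.15) was at 49.2, 54.0 and 55.9 TPM in EV no IL-2, at 42.4, 43.2 and 41.2 in EV+IL-2, 52.2, 52.6 and 51.4 in 1G12t, and 49.1, 39.4 and 40.04 in 3A10t. The EV+IL-2 libraries did not overlap those of EV no IL-2, and replicate 1 of 3A10t was near the lowest of EV no IL-2. Wipi2 fell by 0.32 in EV+IL-2 (SE 0.09, adjusted p = 0.042), and with the replicate as a block the adjusted p was 0.066. This call held in 3 of 12 fits without 1 library (EV no IL-2 replicate 1, 3A10t replicate 1 or 3A10t replicate 2), with adjusted p from 0.051 to 0.15 in the others. The change in 3A10t was -0.31 (adjusted p = 0.092). Wipi1, at 1.83 to 3.11 TPM in all libraries, and Atg9a, at 17.1 to 23.0, passed the test in no comparison.

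**Figure D2:**
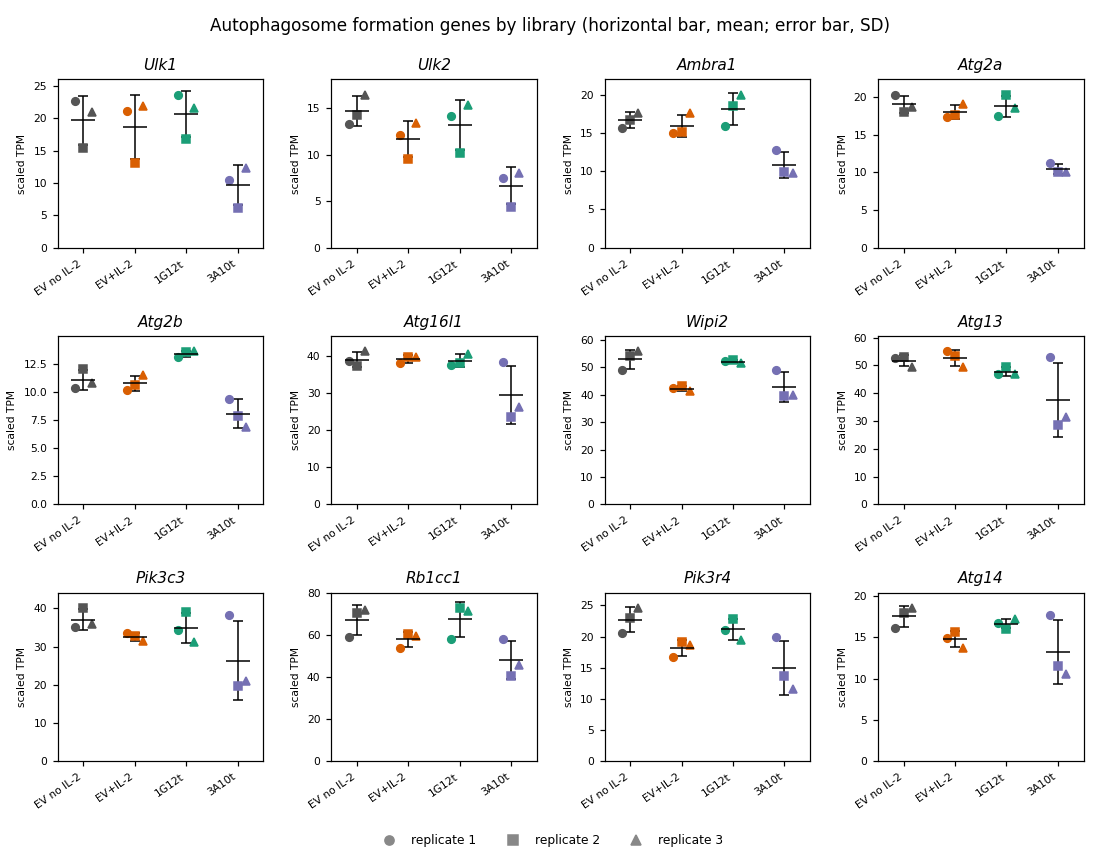
Scaled TPM (y axis, from 0) of 12 autophagosome formation genes in each of the 12 libraries, by group (x axis), with the mean and SD of 3 libraries. For Ulk1, Ulk2, Ambra1, Atg2a and Atg2b all 3 points of 3A10t lie below the points of the other groups, whereas for Atg13, Pik3c3 and Atg14 replicate 1 of 3A10t lies among them.

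The conjugation machinery attaches LC3 and GABARAP proteins to lipid through the enzymes ATG7, ATG3 and ATG10 and the ATG12-ATG5-ATG16L1 complex, after ATG4 proteases trim them. These 10 genes showed the smallest differences. With soluble IL-2 and in 1G12t, relative to EV no IL-2, their log2 changes lay between -0.25 and 0.12 and none passed the test. Atg16l1 (chr1:87755870-87792428, ENSMUSG00000026289.15) was at 38.5, 37.2 and 41.2 TPM in EV no IL-2, at 38.0, 39.7 and 39.7 in EV+IL-2, 37.5, 38.0 and 40.6 in 1G12t, and 38.3, 23.7 and 26.1 in 3A10t. Replicate 1 of 3A10t was level with the other groups, and the other 2 were the lowest of the 12. The fall against EV+IL-2 of 0.43 (SE 0.14, adjusted p = 0.049) was the sole call among these 10 genes. It was lost with the replicate block (adjusted p = 0.056) and in 11 of 12 fits without 1 library, all but that without 3A10t replicate 1 (adjusted p 0.061 to 0.14). The call was also lost with TPM as deposited (0.061), quantile normalization (0.12), no eBayes trend (0.061) and each length correction (0.0502 to 0.060). The same held with 5 instead of 1 added before the logarithm (0.052) and with only the 6 libraries compared (0.17). The 4 ATG4 genes ranged from -0.13 to 0.07 in 3A10t against EV no IL-2, and Atg5 changed by -0.05. Atg3, at 79.6, 90.9 and 83.8 TPM in 3A10t against 66.4 to 78.1 in EV no IL-2, lay above it without overlap but did not pass the test (log2 change 0.24, adjusted p = 0.14). Against EV no IL-2, 3 of the 40 genes lay above and 9 below without overlap, beside 13.3% and 12.1% of all genes.

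The LC3 and GABARAP proteins are the ubiquitin-like tags of the autophagosome membrane, and cells turn them over with it. Map1lc3b was the most abundant of the 5 in all 12 libraries. It was at 618, 624 and 558 TPM in EV no IL-2, at 524, 545 and 480 in EV+IL-2, 605, 535 and 447 in 1G12t, and 577, 862 and 640 in 3A10t. The EV+IL-2 libraries lay below those of EV no IL-2 without overlap, while those of 3A10t spread over the widest range, with replicate 2 at the top. The log2 change was -0.22 with soluble IL-2 (adjusted p = 0.41), -0.19 in 1G12t (0.78) and 0.19 in 3A10t (0.42), and the difference of 3A10t from EV+IL-2 was 0.40 (adjusted p = 0.071, and 0.048 with the replicate block). Without 3A10t replicate 1, Map1lc3b was called higher in 3A10t than in EV+IL-2 (0.53, adjusted p = 0.022) and than in 1G12t (0.50, 0.033). With quantile normalization its fall with soluble IL-2 was called (-0.41, adjusted p = 0.014). Gabarapl1 (chr6:129533160-129542346, ENSMUSG00000030161.8) went in the other direction under soluble IL-2, at 33.5, 31.7 and 29.2 TPM in EV no IL-2, at 42.3, 44.1 and 39.0 in EV+IL-2, 33.3, 28.1 and 21.5 in 1G12t, and 29.7, 31.1 and 29.0 in 3A10t. All of EV+IL-2 was above all 9 others. Between 3A10t and EV+IL-2, Gabarapl1 differed by -0.47 on the log2 scale (SE 0.13, adjusted p = 0.028), a call lost without EV+IL-2 replicate 1, EV+IL-2 replicate 2 or 3A10t replicate 3 (adjusted p 0.075 to 0.083), and its change in EV+IL-2 against EV no IL-2 was 0.40 (adjusted p = 0.074, and 0.041 with the replicate block). With quantile normalization the difference between 3A10t and EV+IL-2 was -0.33 (adjusted p = 0.12). In EV+IL-2 against EV no IL-2, 6 of the 40 genes lay above and 8 below without overlap, beside 19.6% and 20.0% of all genes.

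Gabarap was at 395, 375 and 321 TPM in EV no IL-2, at 343, 344 and 347 in EV+IL-2, 361, 348 and 241 in 1G12t, and 371, 410 and 337 in 3A10t. Gabarapl2 was at 212, 203 and 182, then 219, 220 and 230, then 186, 189 and 226, and then 210, 275 and 221 in the same order of groups. Map1lc3a, the least abundant, was at 28.1, 24.0 and 22.2, then 21.3, 21.5 and 24.9, then 22.9, 19.8 and 28.9, and then 21.9, 27.4 and 27.1. The groups overlapped for all 3 genes, apart from Gabarapl2 between the EV groups, and none passed the test in any comparison. In 3A10t against EV no IL-2, 4 of the 5 genes had a positive change with median scaling and 2 of 5 with TPM as deposited, so no direction is given for the family.

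Motifs were searched in 300-base RefSeq windows on GRCm38.p6, from 250 bases before to 50 after a gene's annotated start, which were at hand for 33 of the 40 genes. The letters CACGTG, the core of the element that TFEB and TFE3 bind, which reads the same on both strands, were in the windows of 6 of 33 genes (18.2%), beside 8.09% of 27025 genes. The STAT5 motif TTCNNNGAA, also the same on both strands, was in 4 of 33 (12.1%), beside 9.55%. The FOXO motif GTAAACA, on either strand, was in 0 of 33, beside 4.05%. Matches are printed here with 1 motif each in capitals, for Gabarapl1, for the mitophagy receptor Bnip3 and for the lysosomal membrane gene Lamp1, which holds several. A match describes letters and not a bound site.
Gabarapl1, STAT5 motif, chr6:129532963-129533001, + strand: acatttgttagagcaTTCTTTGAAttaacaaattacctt
Bnip3, CACGTG, chr7:138909594-138909629, - strand: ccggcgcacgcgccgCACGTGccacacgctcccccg
Lamp1, CACGTG, chr8:13159085-13159120, + strand: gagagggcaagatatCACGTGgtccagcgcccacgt
Lamp1, CACGTG, chr8:13159101-13159136, + strand: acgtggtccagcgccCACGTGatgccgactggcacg
Lamp1, CACGTG, chr8:13159118-13159153, + strand: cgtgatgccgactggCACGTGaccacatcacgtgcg
Counted from the annotated start, the Gabarapl1 match begins at base -214, that of Bnip3 at -108 and those of Lamp1 in capitals at -61, -45 and -28. Lamp1 has a further CACGTG at -15, which is in lower case in the last sequence. The other genes with CACGTG were Atg3, Atg5, Atg7 and Atg14, none of which passed the test in any comparison, and the other genes with the STAT5 motif were Gabarap, Nbr1 and Wipi1, of which the same holds.

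Of the 5 cargo receptor genes, 1 was called higher (Bnip3) and 2 lower (Bnip3l and Sqstm1) in EV+IL-2 against EV no IL-2. Each of these calls was lost without certain single libraries, as given below. Calls in this comparison were near or below the share of all tested genes, so no reading is given for the receptors as a set. Bnip3 and Bnip3l (also known as NIX) encode related receptors in the outer mitochondrial membrane that mark mitochondria for autophagy, and they moved in opposite directions. Bnip3 (chr7:138890836-138909519, ENSMUSG00000078566.8) was at 98.0, 115 and 93.6 TPM in EV no IL-2, at 147, 161 and 135 in EV+IL-2, 98.4, 99.9 and 74.9 in 1G12t, and 104, 83.0 and 103 in 3A10t. With soluble IL-2 every library was above all 9 others. Bnip3 rose by 0.53 in EV+IL-2 (SE 0.14, adjusted p = 0.027) and was lower in 3A10t than with soluble IL-2 by -0.61 (adjusted p = 0.010). The rise lost its call without replicate 1 or 3 of EV no IL-2 or replicate 1 or 2 of EV+IL-2 (adjusted p 0.084 to 0.11) and the difference from 3A10t kept it whichever library was left out. With TPM as deposited the rise was 0.47 (adjusted p = 0.066). Against EV no IL-2 the change was -0.08 (95% interval -0.38 to 0.22) in 3A10t and -0.17 (-0.47 to 0.13) in 1G12t.

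Bnip3l (chr14:66985239-67008877, ENSMUSG00000022051.15) was at 365, 373 and 341 TPM in EV no IL-2, at 284, 290 and 273 in EV+IL-2, 312, 336 and 349 in 1G12t, and 338, 456 and 373 in 3A10t. All 3 libraries with soluble IL-2 were below the other 9. Bnip3l fell by 0.35 in EV+IL-2 (SE 0.10, adjusted p = 0.045) and was higher in 3A10t than in EV+IL-2 by 0.45 (adjusted p = 0.010). The difference from 3A10t held without any 1 library, whereas the fall held in 2 of 12 such fits (without 3A10t replicate 1 or 2), with adjusted p from 0.051 to 0.13 in the others. NIX is best known for clearing mitochondria from maturing red cells. The erythroid list was higher in EV+IL-2, as given above, and its part in the levels of Bnip3l was not tested.

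Sqstm1 encodes p62, the receptor for ubiquitinated cargo, which is itself degraded by autophagy. The gene (chr11:50199366-50210827, ENSMUSG00000015837.15) was at 391, 399 and 374 TPM in EV no IL-2, at 332, 316 and 302 in EV+IL-2, 367, 336 and 350 in 1G12t, and 386, 354 and 380 in 3A10t. The EV+IL-2 libraries were the lowest 3 of the 12. Sqstm1 fell by 0.30 in EV+IL-2 (SE 0.07, adjusted p = 0.015) and was higher in 3A10t than in EV+IL-2 by 0.24 (adjusted p = 0.029). The fall lost its call without replicate 1 or 2 of EV no IL-2 or replicate 2 or 3 of EV+IL-2 (adjusted p 0.051 to 0.068), and the difference from 3A10t without any 1 of the EV+IL-2 libraries or 3A10t replicate 3 (0.053 to 0.11). With TPM as deposited the difference from 3A10t was 0.15 (adjusted p = 0.21), and with quantile normalization 0.20 (0.11). In 1G12t the 3 libraries lay below EV no IL-2 without overlap at a change of -0.14 (95% interval -0.29 to 0.005, adjusted p = 0.71), the 1 gene of the 40 that did so, beside 7.80% of all genes. In 3A10t the change was -0.06 (-0.21 to 0.09).

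Optn and Nbr1 encode further receptors of ubiquitinated cargo. Optn (chr2:5020642-5064051, ENSMUSG00000026672.11) was weakly expressed, at 2.70, 2.24 and 2.01 TPM in EV no IL-2, at 3.42, 3.88 and 3.22 in EV+IL-2, 2.40, 2.03 and 1.71 in 1G12t, and 2.24, 2.11 and 2.57 in 3A10t. EV+IL-2 was above all 9 other libraries. From EV+IL-2 to 3A10t, Optn differed by -0.45 (SE 0.14, adjusted p = 0.041), and its change in EV+IL-2 against EV no IL-2 was 0.44 (adjusted p = 0.061). The call held in 3 of 12 fits without 1 library (EV no IL-2 replicate 1, 1G12t replicate 1 or 1G12t replicate 3), with adjusted p from 0.051 to 0.12 in the others. Nbr1 was at 38.4 to 51.5 TPM in 10 libraries, at 94.1 in 1G12t replicate 3 and at 23.4 in 3A10t replicate 2, and passed the test in no comparison.

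TFEB and TFE3 are the transcription factors that switch on lysosome and autophagy genes, and LAMP1 and LAMP2 are the main proteins of the lysosome membrane. Neither factor gene passed the test in any comparison with all 12 libraries. Tfeb was at 35.4, 33.1 and 31.2 TPM in EV no IL-2, at 34.5, 33.0 and 30.9 in EV+IL-2, 36.9, 33.0 and 37.9 in 1G12t, and 33.0, 36.7 and 31.6 in 3A10t, with overlap between all groups. The 95% interval of its change from EV no IL-2 was -0.21 to 0.18 with soluble IL-2, -0.09 to 0.30 in 1G12t and -0.17 to 0.22 in 3A10t. Tfe3 was at 21.9, 21.9 and 20.9 in EV no IL-2, at 24.7, 24.7 and 24.9 in EV+IL-2, 22.8, 21.1 and 25.5 in 1G12t, and 23.6, 18.1 and 20.8 in 3A10t. The 3 values of EV+IL-2 were all above those of EV no IL-2 (log2 change 0.19, adjusted p = 0.26). Without 3A10t replicate 1, Tfe3 fell by 0.33 in 3A10t against EV+IL-2 (adjusted p = 0.019), where the change with all libraries was -0.25 (0.098). TFEB and TFE3 are controlled mainly by phosphorylation and their place in the cell, which RNA does not measure.

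Lamp1 (chr8:13159161-13175338, ENSMUSG00000031447.7) was the gene that varied most between libraries of 1 group. It was at 351, 337 and 342 TPM in EV no IL-2, at 449, 303 and 442 in EV+IL-2, 342, 191 and 184 in 1G12t, and 188, 107 and 381 in 3A10t. In each tether group, 2 of 3 libraries were below all 6 EV libraries and the third was among them. The log2 changes were -0.58 in 1G12t (95% interval -1.44 to 0.28, adjusted p = 0.75) and -0.80 in 3A10t (-1.66 to 0.06, adjusted p = 0.22). Against EV+IL-2, the change of -0.99 in 3A10t (adjusted p = 0.091) became -1.46 (adjusted p = 0.012) without 3A10t replicate 3. Lamp2 (chrX:38401357-38456454, ENSMUSG00000016534.15) was at 69.5, 72.5 and 73.9 in EV no IL-2, at 87.3, 82.7 and 86.3 in EV+IL-2, 65.9, 69.5 and 31.1 in 1G12t, and 68.5, 57.5 and 65.2 in 3A10t. The EV+IL-2 libraries were above all 9 others, and the value of 31.1 stood far from its group. Its change in EV+IL-2 was 0.24 (adjusted p = 0.60) and that of 3A10t against EV+IL-2 was -0.42 (adjusted p = 0.22, and 0.0056 without 1G12t replicate 3, whose low value enters the shared estimate of the spread).

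Without overlap, 3A10t lay above 1G12t in 1 of the 40 genes and below it in 6, beside 13.7% and 12.5% of all genes, and above EV+IL-2 in 6 and below it in 10, beside 18.9% and 18.0%. Above EV no IL-2, 1G12t lay without overlap in 1 gene, Atg2b, beside 8.68%.

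**Figure D3:**
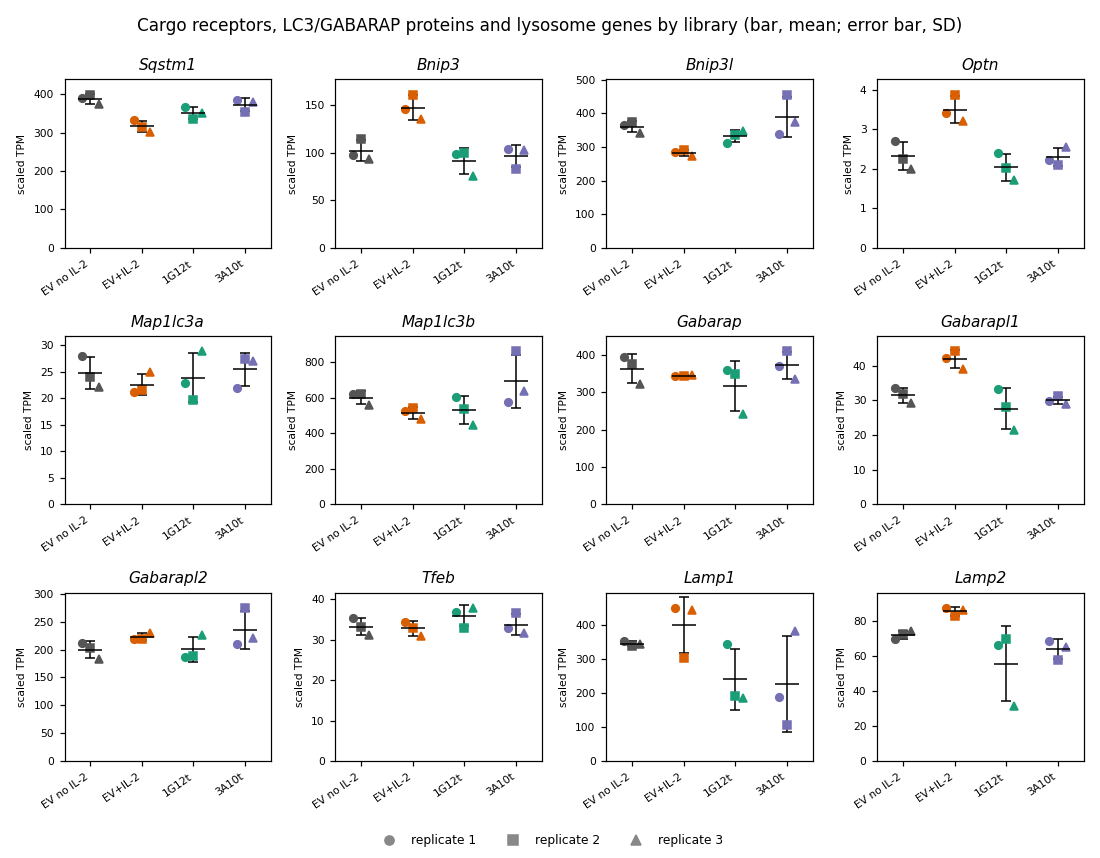
Scaled TPM (y axis, from 0) of the cargo receptors Sqstm1, Bnip3, Bnip3l and Optn, the 5 LC3 and GABARAP genes, Tfeb, Lamp1 and Lamp2 in each library, by group (x axis), with the mean and SD of 3 libraries. EV+IL-2 stands alone at the top for Bnip3, Optn, Gabarapl1 and Lamp2 and at the bottom for Sqstm1 and Bnip3l, and Lamp1 spreads widely within the tether groups.

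How many of the 40 genes were called depended on the library 3A10t replicate 1. Its values lay within the range of EV no IL-2 for 21 of the 40 genes and below it for 13, whereas replicate 2 was within for 6 and below for 24, and replicate 3 within for 10 and below for 21. These positions were not counted over all tested genes, so they cannot be read as particular to the 40. Without replicate 1, 16 genes were called against EV no IL-2, 2 higher (Atg101 and Wipi1) and 14 lower. Of 14974 genes tested in that fit, 1184 were called higher and 2285 lower, together 23.2%. That fit keeps replicates 2 and 3, which carry the length trend described below, and has no length correction. The 14 were Ulk1, Ulk2, Atg13, Rb1cc1, Pik3c3, Pik3r4, Atg14, Uvrag, Ambra1, Atg2a, Atg2b, Wipi2, Atg12 and Atg16l1, with Pik3c3 at -0.83 (adjusted p = 0.000459) and Atg13 at -0.77 (adjusted p = 0.000204). The number was 17 against 1G12t, where 1755 of all genes were called higher and 2384 lower (27.6%). It was 19 against EV+IL-2, where 2068 were called higher and 2983 lower (33.7%). Those higher in 3A10t were Atg101, Atg3, Map1lc3b and Bnip3l against 1G12t, and Atg101, Map1lc3b, Sqstm1 and Bnip3l against EV+IL-2. The rest were lower.

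Transcript length moved with the differences of 3A10t. Across the 40 genes, the log2 change in 3A10t against EV no IL-2 had a Spearman correlation of -0.60 with the length of the longest annotated transcript, and across 14857 tested genes of any function it was -0.33. The genes share the same libraries, so these are descriptions. For EV+IL-2 and for 1G12t the values were -0.25 and 0.36 over the 40 genes and -0.03 and 0.04 for all. Of the 20 genes with a transcript of at least 3659 bases, 2 had a positive change in 3A10t and the median was -0.32, beside a median of -0.13 over all genes of that length. The 5 genes under 1746 bases, Map1lc3a, Atg101, Gabarap, Atg10 and Gabarapl2, were all positive with a median of 0.23, beside 0.19 over all genes of that length.

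The median of long genes minus that of short genes, each taken relative to the mean of the 12 libraries, was -0.49 on the log2 scale in 3A10t replicate 2 and -0.18 in replicate 3, against 0.02 in replicate 1 and 0.03 to 0.21 in the other 9 libraries. Ulk1, Ulk2, Ambra1, Atg2a and Atg2b have longest transcripts of 5203 to 7546 bases. In 3A10t replicate 1, of the 20 long genes 9 lay below the range of EV no IL-2, 9 within it and 2 above it, whereas in each of replicates 2 and 3 the numbers were 17, 1 and 2. The same count was not made over all tested genes of that length. Ulk1, Ulk2, Ambra1, Atg2a and Atg2b were among the 9, as they had to be, since they were singled out for low values in all 3 libraries of 3A10t. After the trend on length was removed in each library, Atg2a still fell against EV no IL-2, by 0.67 (adjusted p = 0.012), while Ulk1 changed by -0.82 (0.11), Ulk2 by -0.91 (0.053) and Ambra1 by -0.42 (0.061). Against 1G12t, Atg2a at -0.57 (0.021) and Ambra1 at -0.50 (0.042) kept the call after that correction, whereas Ulk1 at -0.86 (0.078), Ulk2 at -0.70 (0.068) and Atg2b at -0.47 (0.055) lost it. With the replicate block added to the correction, Ulk1 gained a call against EV no IL-2, at -0.82 (adjusted p = 0.028). Ulk2 kept its call there and Ambra1 did not (0.070). Against 1G12t in that fit, Ulk1, Ulk2 and Atg2b kept their calls, and the adjusted p of Ambra1 was 0.05003. Against EV+IL-2, Atg2b at -0.31 (0.057) and Atg16l1 at -0.32 (0.0502) lost the call after the length correction. Map1lc3b gained a call there, at 0.54 (0.04985), and with the block added Atg13 did too, at -0.41 (0.048). With the median in place of the longest transcript, Atg2b (0.12), Atg16l1 (0.052), Sqstm1 (0.087) and Optn (0.090) lost the call against EV+IL-2. Atg101 gained it, at 0.39 (0.047).

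**Figure D4:**
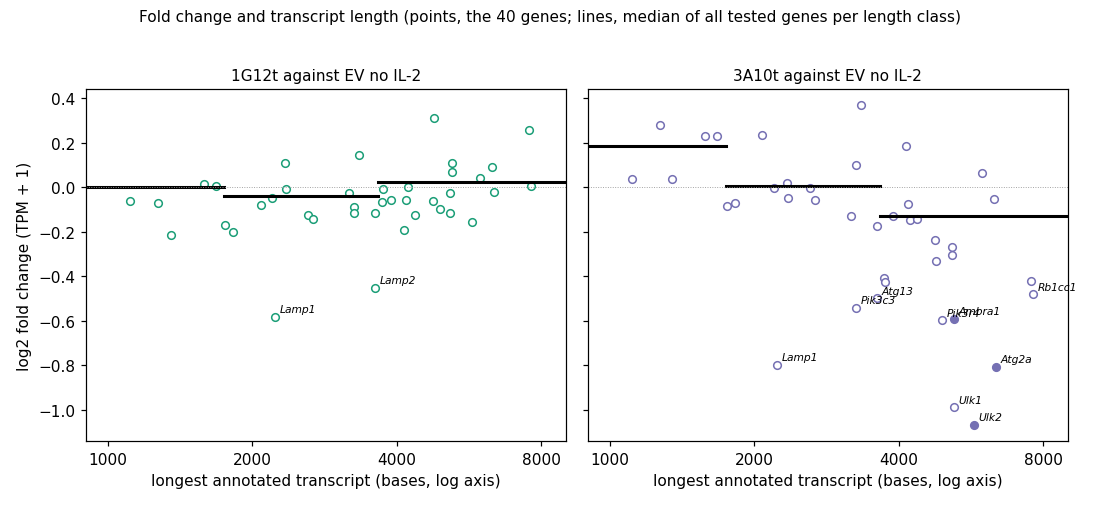
Log2 fold change (y axis, relative to EV no IL-2) by longest annotated transcript in bases (x axis, log scale) for the 40 genes in 1G12t and 3A10t, filled at an adjusted p under 0.05, with lines for the median of all tested genes in each of 3 length classes. The points of 3A10t run lower with length and those of Ulk1, Ulk2, Atg2a and Ambra1 lie below the line of their class.

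The rest of the pathway was described with 7 lists of 137 further genes, of which 131 were tested. In EV+IL-2 against EV no IL-2, 4 were called higher and 4 lower, shares below those of all genes (8.17% and 5.13%). Sesn2, a stress-induced inhibitor of mTORC1, was at 18.3, 18.2 and 17.3 TPM without IL-2 and at 37.1, 40.5 and 33.5 with it, and rose by 1.01 (SE 0.16, adjusted p = 0.0020). Ctsc, the protease that activates granzymes in the lysosome, was at 143, 160 and 144 and at 257, 261 and 217, and rose by 0.71 (adjusted p = 0.011). Ddit4, another inhibitor of mTORC1, rose by 0.42 (0.026) and the hydrolase gene Gusb by 0.31 (0.041). Tmem175, a channel of the lysosome membrane, fell by 0.52 (0.0066), Atg16l2, a paralog of Atg16l1, by 0.34 (0.0093), the receptor gene of endoplasmic reticulum autophagy Retreg1 by 0.35 (0.049) and the sialidase gene Neu1 by 0.29 (0.042). The calls of Sesn2 and Tmem175 held without any 1 library and that of Atg16l2 without any but EV+IL-2 replicate 1 (adjusted p = 0.054). Ctsc was lost without EV+IL-2 replicate 1 or 2 (up to 0.051), Ddit4 in 4 of 12 such fits, those without replicates 2 or 3 of EV no IL-2 or 1 or 2 of EV+IL-2, and Gusb, Neu1 and Retreg1 in 8, 8 and 10 of 12, each of which includes every EV library, with adjusted p of up to 0.16, and with the replicate block.

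In 3A10t against EV no IL-2, 0 of the 131 were called higher and 3 lower, near the shares of all genes (0.452% and 1.60%). Zfyve1, which marks the membrane where autophagosomes start, was at 18.2, 17.4 and 15.8 TPM in EV no IL-2 and at 11.5, 8.04 and 7.30 in 3A10t, and fell by 0.89 (SE 0.14, adjusted p = 0.019). Plekhm1, an adaptor for fusion with the lysosome, fell by 0.71 (adjusted p = 0.039), and Prkaa1, a catalytic subunit of AMPK, which activates ULK1, fell by 0.71 (0.030). Groups did not overlap for these 3 genes. Zfyve1 lost its call without any 1 of the EV no IL-2 libraries, 3A10t replicate 2 or 3A10t replicate 3, Prkaa1 in 7 of 12 such fits, all of which left out a library of EV+IL-2, replicate 2 or 3 of EV no IL-2 or replicate 2 or 3 of 3A10t, and Plekhm1 in 11 of 12, all but that without 3A10t replicate 1. The adjusted p reached 0.098, 0.14 and 0.16 in these fits. Plekhm1 was called in 6 of 24 alternatives and lost its call under each length correction. Of the 23 other genes of autophagosome formation and fusion, 5 had a positive change in 3A10t and 10 lay below EV no IL-2 without overlap (12.1% of all genes did), while of 29 hydrolase genes 15 and of 16 proton pump genes 9 were positive, beside 52.9% of all genes. With TPM as deposited, where the median of all genes in this comparison was -0.09 instead of 0.03, these numbers were 3, 5 and 6. The median change of the formation and fusion genes was -0.27, and it was -0.08 without 3A10t replicate 2 and -0.18 with 8 of 23 positive after the length correction.

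Among the same 131 genes, limma called 0 in 1G12t, with 11 at an unadjusted p under 0.05, close to the 7.04% of all genes. Most changes were negative and small. A positive change was found in 3 of 29 hydrolase genes, 1 of 16 proton pump genes, 2 of 15 genes of lysosomal membrane proteins and 0 of 14 further receptor genes, beside 48.1% of all genes, and 33 of the 131 lay below EV no IL-2 without overlap, beside 7.80%. The list medians were -0.23, -0.18, -0.16 and -0.12, on the log2 scale. With TPM as deposited the 4 numbers were 4, 2, 3 and 3 and with quantile normalization 4, 2, 2 and 4, so the lean remained under both scalings. The size rested largely on 1G12t replicate 3. Without it the median was -0.06 for the hydrolases, -0.06 for the proton pump and -0.05 for the membrane proteins, whereas without any other single library these medians were at or below -0.22, -0.17 and -0.13.

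**Figure D5:**
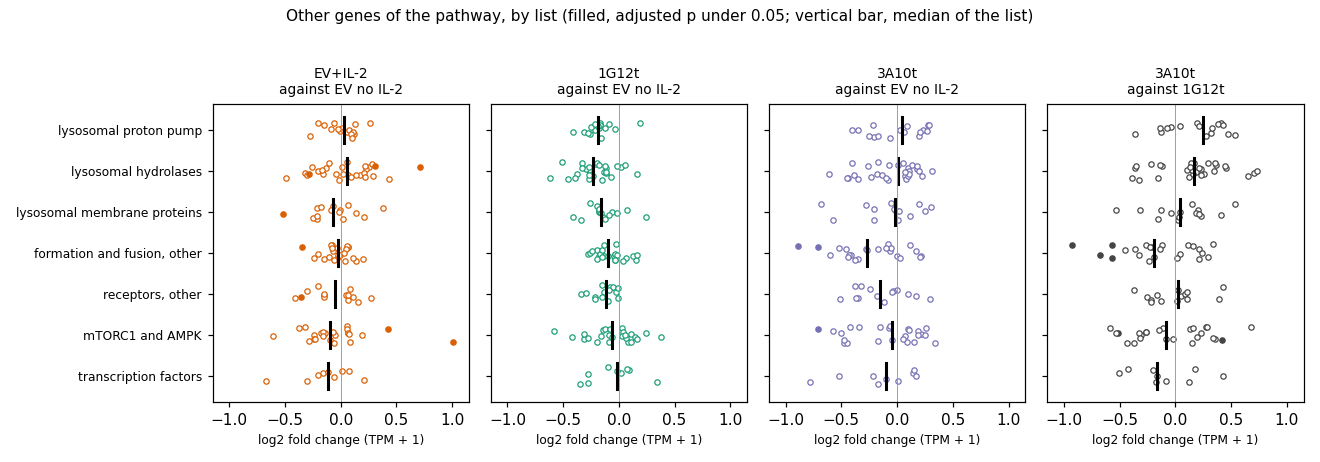
Log2 fold changes (x axis) of the 131 tested genes of 7 lists (y axis) in 4 comparisons, 1 point per gene, filled at an adjusted p under 0.05, with a vertical bar for the median of the list. For 1G12t the bars of the lysosome lists lie between -0.23 and -0.16, and in 3A10t against EV no IL-2 that of the formation and fusion list lies at -0.27 (-0.08 without 3A10t replicate 2).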

How the data were processed

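Bulk RNA-seq of 12 libraries was analysed, with groups and replicates taken from the sample labels. The deposited values are TPM for 55228 gene symbols. Per the submitters' processing notes, the authors trimmed reads with Cutadapt 1.18, aligned them to mm10/GRCm38 with STAR 2.5.3, estimated expression with RSEM 1.3.0 and compared groups with DESeq2 1.26. The libraries were made from oligo-dT primed full-length cDNA that was amplified before fragmentation. TPM are divided by length and library total and keep no depth, so no counting error can be given, and the authors' test on counts could not be repeated.

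TPM were divided by median-of-ratios factors. Genes whose mean TPM reached 1 were tested with limma (lmFit, eBayes with trend) on log2(value + 1), with all 12 libraries and 1 mean per group. P-values were adjusted by Benjamini-Hochberg over all 15043 genes for each of 5 comparisons. The code was tested on simulated data. Lengths and positions are from GENCODE M21 on GRCm38, with the longest transcript of a gene as its length, a choice made after the data were seen in place of the median length. Length trends were removed with lowess at a span of 0.3. The 40 genes and the lists were chosen with earlier results of these data known. Values in every library are given for genes past an adjusted p of 0.05 in any comparison, for the 5 LC3 and GABARAP genes and for Ulk1, Tfeb, Tfe3, Lamp1, Lamp2 and Sqstm1, and further genes were given by range or change. Of the 7 lists, the genes called against EV no IL-2 are named. Genes whose values split the 3A10t libraries were added after their values were seen.

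Replicate numbers mark a shared sort by the labels. Deviations from the group means correlated at 0.041 on average over 18 pairs with the same number (-0.11 to 0.15, 3 pairs over 0.1) and at -0.020 over 36 other pairs. Blocked values stand beside the calls they changed. The tools were limma 3.58.1 in R 4.3.3, and matplotlib 3.10.9 and pandas 2.3.3 in Python 3.11.15.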

Additional observations from a re-analysis of the deposited data

How the results depend on the processing

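Across 24 alternatives, of which median transcript length was added after the data were seen, no called gene changed direction. Of 4785 values of the 40 genes, 182 lost a call, 65 gained one and 4538 stayed on their side of the threshold. The count of genes called in EV+IL-2 against EV no IL-2 (4) was 1 with no filter on low TPM, 2 with TPM as deposited, 8 with only the 6 libraries compared and 0 to 4 without 1 library. In 3A10t against EV no IL-2 (3) it was 1 with no filter, without the eBayes trend or with the length correction, 0 with only the 6 libraries, and 1 to 16 without 1 library. In 3A10t against 1G12t (5) it was 2 with no filter, 8 with TPM as deposited, 3 with quantile normalization or without the trend, 2 with the length correction or the median length correction, 0 with only the 6 libraries, and 1 to 17 without 1 library. In 3A10t against EV+IL-2 (11) it was 3 with only the 6 libraries and 4 to 19 without 1 library. In 1G12t against EV no IL-2 it was 0 throughout. The share of all tested genes called moved with the setting too. In 3A10t against 1G12t it was 4.27% in the main fit, 9.28% with TPM as deposited, 3.19% with quantile normalization and 1.38% with length correction. In 3A10t against EV no IL-2 it was 2.05% in the main fit and 0.784% with length correction. In EV+IL-2 against EV no IL-2 it was 13.3% in the main fit and 14.6% with TPM as deposited. The replicate block gave counts of 4, 4, 0, 5 and 11 for soluble IL-2, 3A10t and 1G12t, each against EV no IL-2, then for 3A10t against 1G12t and EV+IL-2, and changed no call of the 40 genes other than those given beside the results. The fit to 6 libraries has fewer samples to estimate the spread and the fit with no filter tests more genes, and the cause of the other shifts was not tested. With TPM as deposited, the median of all genes in 3A10t against 1G12t was -0.18 instead of -0.02. That scaling removed Wipi2 and Bnip3 in EV+IL-2, and Atg16l1 and Sqstm1 in 3A10t against EV+IL-2. For 3A10t it added Atg2b against EV no IL-2, Rb1cc1, Pik3r4 and Wipi2 against 1G12t, and Atg101 against EV+IL-2. Quantile normalization removed for 3A10t Ambra1 against EV no IL-2, Ulk1 and Ulk2 against 1G12t. It also removed Ulk1, Atg2b, Atg16l1, Gabarapl1 and Sqstm1 against EV+IL-2. It added Map1lc3b in EV+IL-2, and Atg101 and Map1lc3b in 3A10t against EV+IL-2. Calls made in fewer than 12 of the 24 alternatives include Wipi2 and Bnip3l in EV+IL-2 and Ulk2 and Ambra1 in 3A10t against EV no IL-2, while Atg2a was called in 23, 23 and 24 of them in its 3 comparisons, lost with only the 6 libraries. Depth is unknown, so no limit from depth can be given.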
